A study of Mus musculus with 2 samples.

Results

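The calcium pumps of the endoplasmic and sarcoplasmic reticulum, their small inhibitors, the release channels and the calcium-binding proteins of the store were examined in mouse brown fat. The members were Atp2a1, Atp2a2, Atp2a3, Sln, Pln, Ryr1, Ryr2, Casq1, Casq2 and Pvalb, chosen by the gene name that the array files give each probe. Of the 10 names, 8 were found, on 10 of 41174 probes. Ryr1 and Pvalb were not used as gene names in the files, so their 3 probes, and a further probe of Sln, were found by RefSeq accession. These 4 probes are described separately and enter no count of the 8 genes unless stated.

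RNA came from the interscapular brown adipose tissue of male C57BL/6 mice 2 to 3 months old, taken around circadian time 20. Wild-type mice (WT) were set against double-knockout mice (DKO) whose alleles include RORa-/-, the loss of Rora, which encodes a nuclear receptor. The labels name 4 mice per genotype but do not say whether their RNA was pooled, whether both arrays received the same extracts, or which part of each gene was removed. Each of 2 arrays carried both genotypes, with DKO in the red dye Cy5 and WT in the green dye Cy3 on the first and the dyes exchanged on the second. The arrays were counted as 1 replicate per genotype, so no test between genotypes was possible. Each value is a log2 ratio, DKO over WT, averaged over the arrays and given ± SD (n = 2 arrays). The SD reflects dyes and measurement and says nothing of the spread between mice.

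Muscle cells keep calcium in the sarcoplasmic reticulum, release it through ryanodine receptors to start contraction, and pump it back with ATPases of the SERCA family. Sarcolipin and phospholamban are small membrane proteins that hold these pumps back, and sarcolipin lets the pump split ATP without moving calcium, which makes heat. Brown adipocytes make heat mainly through the uncoupling protein Ucp1, and calcium cycling by SERCA pumps has been studied as another source of heat in fat. Interscapular brown fat also lies against skeletal muscle, so a dissected depot can hold muscle fibres.

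No member changed by the size rule used here. The rule asked for a mean of 2-fold or more, for 1.5-fold or more in that direction on either array taken alone, and for a signal well above background wherever the gene was higher. Among 14101 measured genes with a symbol, 0.17% were called higher in DKO and 0.0496% lower. The highest mean ratios belonged to Atp2a1 and Atp2a2, the fast muscle pump and the widely expressed pump. For these 2 of the 8 genes, both DKO signals lay above both WT signals, which also held for 9.62% of all measured genes with a symbol. None of the 8 had both DKO signals below both WT signals, against 9.42% of all. Signals were normalised within each array and not between arrays. Setting DKO on one array against WT on the other therefore also holds any difference in brightness between arrays. Counting signs alone, 3 of 8 genes had 2 positive ratios and 1 had 2 negative ones, against 19.2% and 19.2% of all genes. The sign differed between arrays for 4 of 8, against 61.6% of all. Looser and stricter thresholds also called 0 of 8: the shares of all genes were 0.532% higher and 0.34% lower at 1.5-fold and 0.0426% in either direction at 3-fold. With the scanner software's ratios at 2-fold the count was again 0 of 8, against 0.291% higher and 0.142% lower. The median of the 8 was 0.06, with −0.02 on the first array and 0.12 on the second, while the median of all measured genes was 0.00 on each array. With Ryr1, Pvalb and the brighter Sln probe included, the median of the 10 genes was 0.13, and 5 of 10 lay above 0 on both arrays.

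The DNA before the start sites is shown for 4 of the members. The Atp2a1 and Ryr2 windows hold AGGTCA, the core that ROR receptors bind, and the Ryr1 and Casq1 windows do not. The ratios given below were 0.45 for Atp2a1 and 0.09 for Ryr2, and 0.21 for Ryr1 and 0.18 for Casq1. A link between the motif and the ratios was not tested. Each sequence gives the 250 bases before a RefSeq start on GRCm38.p6, 5′ to 3′ on the gene's strand. Capitals mark AGGTCA or the E-box CANNTG, which myogenic factors bind, on either strand.
Atp2a1, chr7:126463074-126463323, minus strand: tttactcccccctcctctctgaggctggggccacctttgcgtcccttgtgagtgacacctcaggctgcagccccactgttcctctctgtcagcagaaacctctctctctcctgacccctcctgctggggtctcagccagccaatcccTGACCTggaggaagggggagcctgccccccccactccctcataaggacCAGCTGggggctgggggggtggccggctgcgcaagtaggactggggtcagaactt
Ryr1, chr7:29125152-29125401, minus strand: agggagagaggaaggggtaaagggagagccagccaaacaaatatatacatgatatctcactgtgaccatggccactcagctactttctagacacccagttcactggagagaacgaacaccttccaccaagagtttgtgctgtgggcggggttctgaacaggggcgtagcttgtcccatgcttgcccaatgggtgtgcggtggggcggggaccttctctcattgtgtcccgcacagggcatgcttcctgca
Ryr2, chr13:12106946-12107195, minus strand: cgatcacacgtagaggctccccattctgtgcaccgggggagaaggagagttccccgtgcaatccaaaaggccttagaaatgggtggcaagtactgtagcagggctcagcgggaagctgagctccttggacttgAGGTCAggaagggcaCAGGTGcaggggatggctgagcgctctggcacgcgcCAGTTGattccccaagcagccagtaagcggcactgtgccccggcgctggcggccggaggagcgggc
Casq1, chr1:172219896-172220145, minus strand: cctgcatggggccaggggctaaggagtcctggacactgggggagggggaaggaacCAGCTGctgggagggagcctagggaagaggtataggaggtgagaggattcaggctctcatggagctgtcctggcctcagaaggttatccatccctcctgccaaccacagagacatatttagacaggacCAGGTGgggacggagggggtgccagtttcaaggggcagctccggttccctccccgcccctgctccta
In Atp2a1 the core begins 103 bases before the start and lies on the opposite strand. In Ryr2 it begins 117 bases before the start on the gene's own strand. The table held 9 windows for 8 of the 10 genes, and none for Atp2a2 or Sln. AGGTCA was in 2 of these 9 windows and in 14% of 32841 promoters of the same length. CANNTG was in 6 of 9 windows and in 66.2% of all promoters, and the MEF2 motif was in 2 of 9, those of Casq2 and Pvalb, and in 2.92% of all. No match overlapped a match of another motif in these windows. A match is a description of letters and not a measured binding site.

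Atp2a1 encodes SERCA1, the pump of fast skeletal muscle. Its brighter probe gave normalised log2 signals of 7.97 and 7.93 in DKO and 7.40 and 7.59 in WT, first for DKO in Cy5 and then for DKO in Cy3. Both DKO values exceeded both WT values. The ratio was 0.45 ± 0.16, or 1.37-fold, with 0.57 on the first array and 0.34 on the second. Each array alone passed the per-array limit that goes with the 1.5-fold threshold, as happened for 0.908% of all genes, but the mean did not reach that threshold. Of all measured genes with a symbol, 0.901% had a higher mean ratio. The other Atp2a1 probe, for the same RefSeq transcript, was at 7.31 and 7.30 in DKO and 7.01 and 7.07 in WT, a ratio of 0.26 ± 0.04. Both probes therefore lay above 0 on both arrays, at sizes under 2-fold. In this bulk tissue, fewer cells of a type and less RNA per cell cannot be told apart, and this holds for every ratio here.

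The offset of 50 that was added to all signals pulls ratios of dim probes towards 0. The scanner software's log ratios, which lack it, gave 0.62 ± 0.24 for the brighter Atp2a1 probe and 0.45 ± 0.11 for the other. On single arrays the software's ratio of the brighter probe was 0.79 with an error of 0.19 and 0.46 with an error of 0.18, where the error covers measurement on one array. In the authors' deposited files the software's p-value for this probe was 2.34e-05 on the first array and 0.0094 on the second. By a software p-value below 0.01 on both arrays with 1 direction, Atp2a1 was the 1 gene called of the 8, higher in DKO, against 0.766% of all measured genes with a symbol, and 0 were called lower, against 0.589%. That p-value knows nothing of differences between mice.

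Atp2a2 encodes SERCA2, the pump of slow muscle and heart and, in another splice form, of most cells. Its brighter probe was at 8.90 and 8.65 in DKO and 8.36 and 8.44 in WT. Again both DKO values exceeded both WT values. The ratio was 0.38 ± 0.24, with 0.55 and 0.21 on the single arrays, and 0.43 ± 0.28 by the software. The error model passed it on the first array only. The other probe, designed on a cDNA clone, was dim and gave 0.13 ± 0.13, with 0.22 and 0.04 on the single arrays. The labels and files do not say which splice forms the 2 probes read.

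Atp2a3 encodes SERCA3, the pump of blood cells, endothelium and some epithelia. It had the lowest ratio of the 8 genes. Its signals were 8.91 and 8.87 in DKO and 9.16 and 8.86 in WT. The ratio was −0.13 ± 0.18, made up of −0.25 on the first array and 0.00 on the second, so the DKO and WT signals overlapped. The 3 pumps thus gave no common direction: Atp2a1 and Atp2a2 had positive values on both arrays, while Atp2a3 was negative on the first only. The 3 endothelial markers did not share a direction: Kdr read −0.20 ± 0.02, Cdh5 −0.09 ± 0.14 and Pecam1 0.15 ± 0.16. Their part in the Atp2a3 value was not tested.

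**Figure D1:**
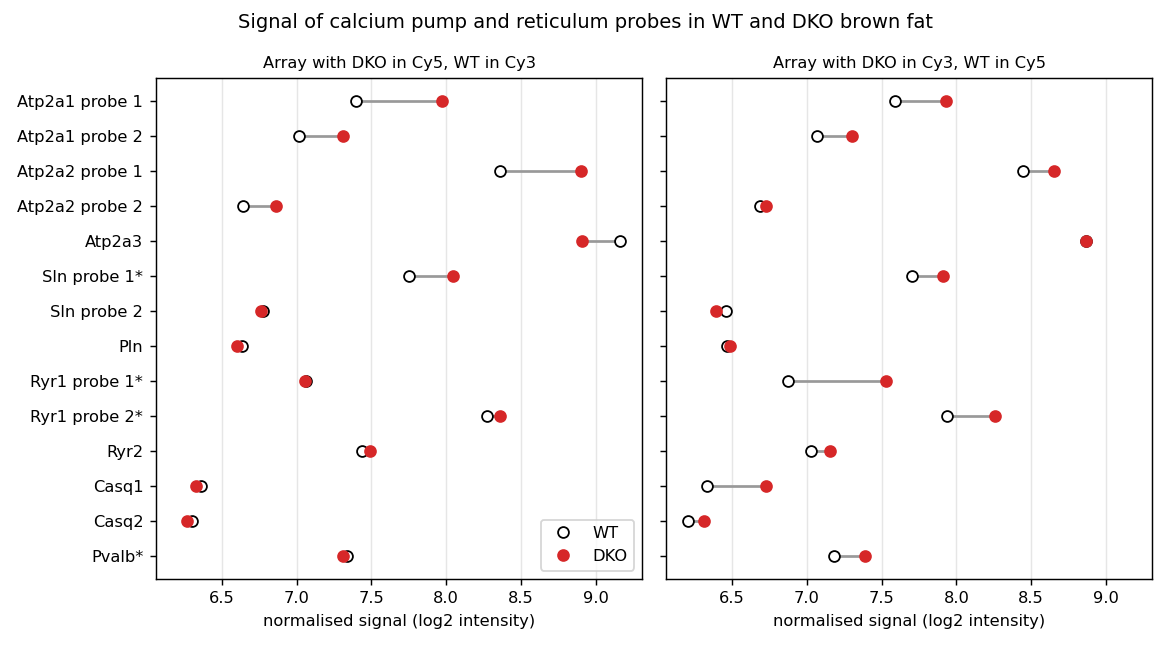
Normalised log2 signal (horizontal axis) of each probe in WT (open circles) and DKO (red circles), with 1 panel per array; an asterisk marks the 4 probes named by accession. For Atp2a1 the DKO signal was 7.97 and 7.93 against 7.40 and 7.59 in WT, while Pln and the dimmer Sln probe had almost equal signals in both genotypes.

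Of the 2 pump inhibitors, Pln was not seen to differ, and the reading of Sln depended on the probe. Phospholamban, encoded by Pln, restrains SERCA2 in heart and slow muscle. Pln was at 6.60 and 6.48 in DKO and 6.63 and 6.46 in WT, a ratio of −0.01 ± 0.04. Sarcolipin, encoded by Sln, restrains SERCA1 and SERCA2 and is the inhibitor tied to muscle heat production. The probe named Sln was at 6.76 and 6.39 in DKO and 6.78 and 6.46 in WT, a ratio of −0.04 ± 0.04. Both probes were close to background: the raw Sln signal stood 17.2 to 66.7 intensity units above its local background and that of Pln 22.2 to 52.3. At such signals a change of moderate size would be hard to detect, and the scanner software put its own single-array error at 0.24 to 0.34 log2 units for both. The brighter Sln probe, found by accession and described in the file only as similar to sarcolipin, gave a different reading. It was at 8.05 and 7.91 in DKO and 7.75 and 7.70 in WT, with both DKO values above both WT values and a ratio of 0.25 ± 0.06. By the software it read 0.40 with an error of 0.18 and 0.27 with an error of 0.17. The probe named Sln read −0.15 with an error of 0.24 and 0.07 with an error of 0.34. Whether the 2 probes differ beyond measurement error was not tested. The dimmer one could miss a change of the size the brighter one read, so the direction of Sln is not settled by these arrays.

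Ryanodine receptors are the channels through which the store empties. Ryr1, the skeletal muscle channel, had 2 probes found by accession. The brighter one was at 8.36 and 8.26 in DKO and 8.27 and 7.94 in WT, a ratio of 0.21 ± 0.16, with 0.09 on the first array and 0.32 on the second. The other probe gave −0.00 and 0.66 on the 2 arrays, a mean of 0.33 ± 0.47. Its value came almost wholly from the array with DKO in Cy3, where the software's ratio was 1.06 with an error of 0.21. Ryr2, the heart channel, which also occurs in brain and other tissues, was at 7.49 and 7.16 in DKO and 7.44 and 7.03 in WT. Its ratio was 0.09 ± 0.05, above 0 on both arrays. Both of its signals were lower on the second array, so DKO there lay below WT on the first.

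Calsequestrins bind calcium inside the store, Casq1 mainly in fast skeletal muscle and Casq2 in heart and slow muscle. Casq1 was at 6.33 and 6.72 in DKO and 6.36 and 6.33 in WT, so the high value was that of DKO on the second array alone. The ratio was 0.18 ± 0.30, with −0.04 and 0.39 on the single arrays. By the software these were −0.04 with an error of 0.43 and 1.03 with an error of 0.36, a mean of 0.50 ± 0.76. The array with DKO in Cy3 thus gave a 2-fold ratio and the other none. Casq2 was at 6.27 and 6.31 in DKO and 6.30 and 6.21 in WT, a ratio of 0.04 ± 0.10. Casq2 was the dimmest member, with raw signals 12.9 to 27.7 units above local background. The 95th percentile of negative control spots lay 1.27 to 4.92 units above theirs, so both calsequestrins were above controls but by little.

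Parvalbumin is a cytosolic calcium buffer that speeds relaxation of fast muscle fibres and also occurs in a class of inhibitory neurons. Its probe, filed under the older symbol Pva, was at 7.31 and 7.39 in DKO and 7.34 and 7.18 in WT. The ratio was 0.09 ± 0.17, with −0.03 and 0.21 on the single arrays. The genotypes did not separate for this gene.

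**Figure D2:**
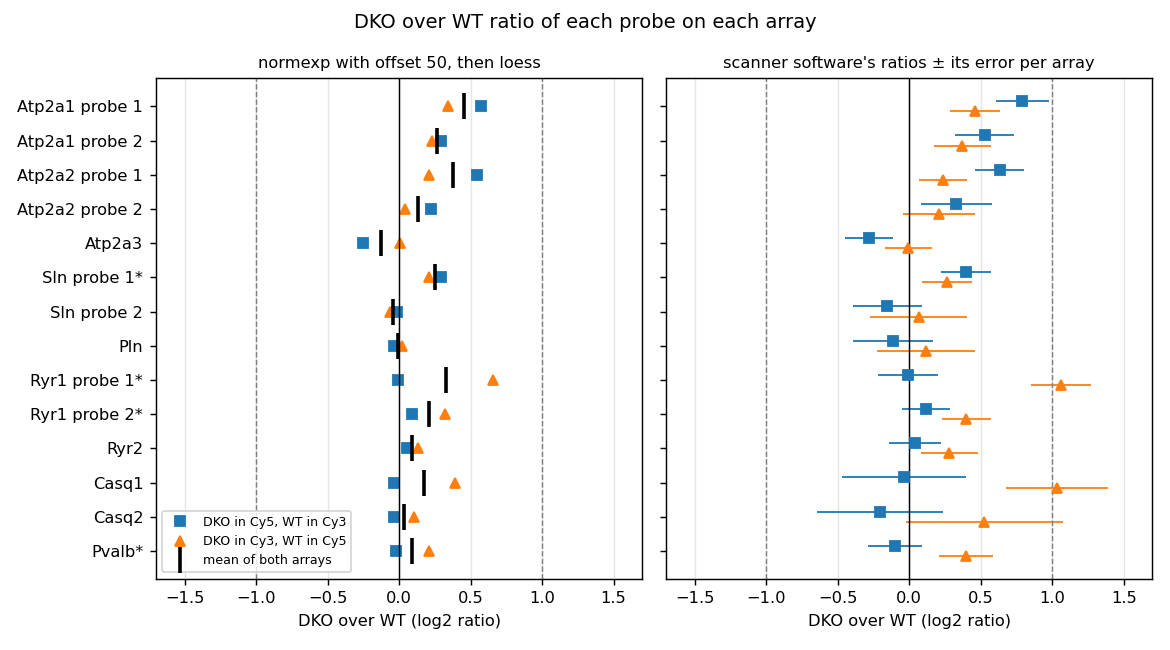
Log2 ratio of DKO over WT for each probe with DKO in Cy5 (blue squares) and with DKO in Cy3 (orange triangles); the left panel has the normalised ratios with their mean as a black bar, the right panel the scanner software's ratios with its error for each array. Dashed lines mark 2-fold; no mean reaches them, and for Casq1 and 1 Ryr1 probe the second array lies far from the first.

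The arrays differed in which members they placed higher. Ryr1, Ryr2, Casq1, Casq2, Pvalb, Pln and Atp2a3 had the higher ratio on the second array, and Atp2a1, Atp2a2 and Sln on the first. Array and dye orientation cannot be told apart with 2 arrays. Over all measured genes with a symbol the 2 arrays correlated with r of 0.08, a description across genes that share both RNA sources.

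The rest of the calcium machinery was read from 5 lists with 64 measured genes, with a median of 0.00. None was called in either direction, against 0.17% of all genes called higher and 0.0496% lower. With shares this small, no call among 64 genes is not a result about calcium genes. Of the 64, 12 had 2 positive ratios and 13 had 2 negative ones, close to the 19.2% of all genes in each direction. Among 15 genes of the triad, where the surface membrane meets the store, the median was 0.01. The brightest were Cacnb1, a calcium channel subunit, at 0.02 ± 0.25, and Fkbp1a, which stabilises ryanodine receptors, at −0.29 ± 0.17. Fkbp1a was lower on both arrays, with −0.41 and −0.17. Among 14 genes of the store's lumen the median was 0.03, with the chaperones Hspa5 at 0.07 ± 0.37 and Hsp90b1 at 0.03 ± 0.19. Channels of IP3 release and store refilling had a median of 0.01 over 11 genes, with Itpr1 at −0.03 ± 0.30 and the store sensor Stim1 at 0.16 ± 0.35. Pumps and exchangers of the plasma membrane and mitochondria had a median of −0.01 over 10 genes, with the outer membrane channel Vdac1 at −0.00 ± 0.12 and the sodium-calcium exchanger Slc8a1 at −0.02 ± 0.07. Cytosolic sensors had a median of −0.03 over 14 genes, with S100a1 at −0.12 ± 0.27 and Calm2 at 0.03 ± 0.18.

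A few genes of these lists stood at the ends of the range. These genes, and Jph2 and Sypl2 beside them, were picked with their values known. The highest of the triad list was Jsrp1, a protein of the muscle junction, at 0.29 ± 0.28, while other triad proteins were near 0, such as Jph2 at 0.04 ± 0.01 and Sypl2 at −0.01 ± 0.22. The highest of the lumen list were the calcium-binding lumen proteins Srl at 0.32 ± 0.39 and Hrc at 0.31 ± 0.26. Jsrp1, Srl and Hrc were above 0 on both arrays and higher on the second. The lowest was Camkk2, a kinase switched on by calcium and calmodulin, at −0.46 ± 0.25, with −0.63 and −0.28 on the single arrays. Camk2b, a related kinase, read −0.32 ± 0.10. None of these genes passed the size rule.

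Markers of skeletal muscle were read beside the members. Of 14 measured markers of fast muscle, 1 was called higher and none lower, against 0.17% and 0.0496% of all genes. Of the 14, 13 lay above 0 on both arrays, against 19.2% of all genes. The median was 0.62, with 0.44 and 0.78 on the single arrays. Eno3, the muscle enolase, was the called gene, at 1.21 ± 0.33. The next 3 were the fast myosin Myh2 at 0.97 ± 0.02, the myosin light chain Mylpf at 0.97 ± 0.27 and the glycolytic enzyme Pgam2 at 0.84 ± 0.61. The summed normalised signal of these markers was 22182 in DKO and 16005 in WT on the first array, and 23955 and 14715 on the second. This sum is weighted by the brightest fast markers, Tnnc2 (0.61 ± 0.10), Tnni2 (0.63 ± 0.25) and Myl1 (0.20 ± 0.04). The sums of the other muscle lists differed in direction between the arrays. DKO over WT was 0.948 and 1.14 for the markers shared by muscle types, and 0.875 and 1.046 for the slow and cardiac markers. The shared sum is weighted by Car3, the brightest marker of that list, at 12.88 and 12.78 in DKO and 13.38 and 13.29 in WT. Car3 was lower in DKO on both arrays and a sum without it was not taken. The shared sum thus does not give the direction of the other shared markers. Taken marker by marker, 10 of the 16 lay above 0 on both arrays and 2 below, Car3 among the latter. All 14 fast markers were well above background in both genotypes on both arrays, so none was absent from either, and Myh4 was matched to no probe. Of 16 markers shared by muscle types, Ckmt2 (1.42 ± 0.28), Myom2 (1.08 ± 0.07) and Mb (1.004 ± 0.39) were called higher and none lower, with 10 positive and 2 negative throughout. Acta1, skeletal actin, was next at 0.84 ± 0.36. The median was 0.56, with 0.2178 on the first array and 0.775 on the second. Car3, which is also abundant in adipocytes, read −0.50 ± 0.01. Ckmt2 is also made by brown adipocytes. Slow and cardiac markers gave no call among 15 and a median of 0.02, with Mybpc1 at 0.33 ± 0.02, Myh7 at −0.31 ± 0.16, Tnnt1 at −0.29 ± 0.61 and Myl2 at 0.25 ± 0.33.

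The skeletal-type members (Atp2a1, Ryr1, Casq1 and Pvalb) lay between 0.09 and 0.45, below the fast marker median of 0.62. The fast markers themselves ran from 0.09 to 1.21, so the members lay within their range. By the software's ratios Atp2a1 read 0.62, Casq1 0.50, Ryr1 0.26 and Pvalb 0.15, and the fast marker median was 0.68. How far muscle RNA accounts for the members' values was not tested, and a difference between the members and the markers was not tested either.

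**Figure D3:**
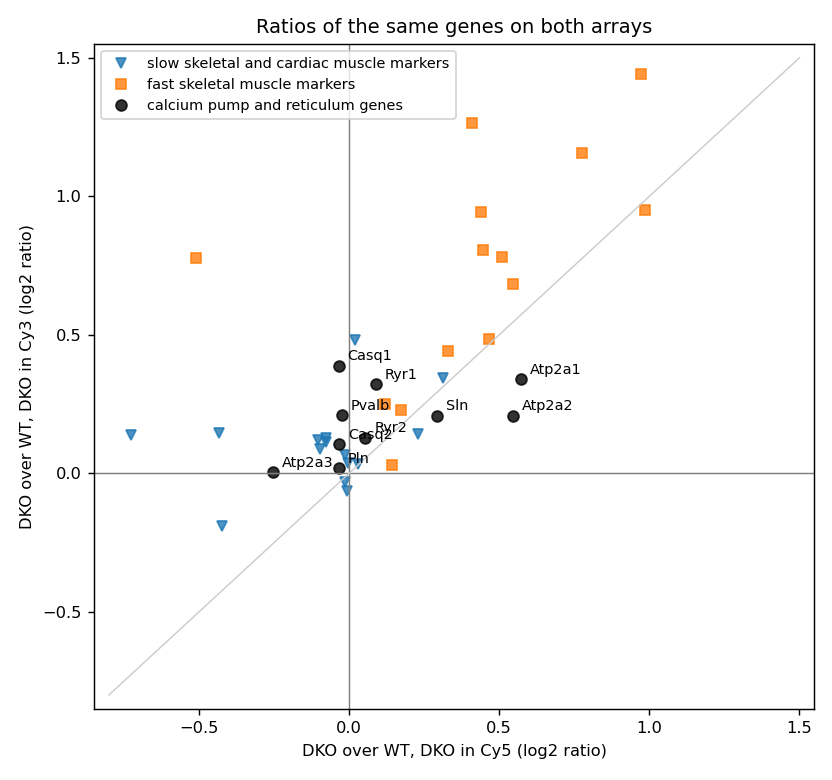
Log2 ratio of DKO over WT on the first array (DKO in Cy5, horizontal) against the second (DKO in Cy3, vertical) for the 10 genes (black circles, named), 14 fast muscle markers (orange squares) and 15 slow and cardiac markers (blue triangles); the grey line marks equal ratios. Atp2a1 and Atp2a2 lie to the right at 0.57 and 0.55, Casq1 and Ryr1 lie above the line, and 13 of the 14 fast markers lie above 0 on both axes.

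Smooth muscle markers had no call among 8, where 0.17% of all genes were called higher and 0.0496% lower. Their median was 0.03, with Tagln at 0.35 ± 0.75 and Acta2 at 0.11 ± 0.33. Endothelial, blood, platelet and nerve markers had no call among 15 and a median of −0.01, with Cd3e at 0.00 ± 0.05. Brown adipocyte markers had 2 called higher among 14, Dio2 (1.89 ± 0.32) and Elovl3 (1.02 ± 0.02), against 0.17% of all genes. Their median was 0.05. Dio2, which activates thyroid hormone, had a higher ratio than any muscle marker named above. Ucp1, which defines the brown adipocyte, was at log2 signals of 15.08 and 15.21 in DKO and 14.34 and 14.48 in WT. Its ratio was 0.73, with almost no spread between arrays, larger than that of any member but under the 2-fold rule. Rora, the check of the genotype, read −0.38 ± 0.04 and −0.47 ± 0.10 on its 2 probes and was lower in DKO on both arrays. The software's ratios, without the offset, were −0.96 ± 0.07 and −1.52 ± 0.14; where the probes lie relative to the deletion is not given.

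**Figure D4:**
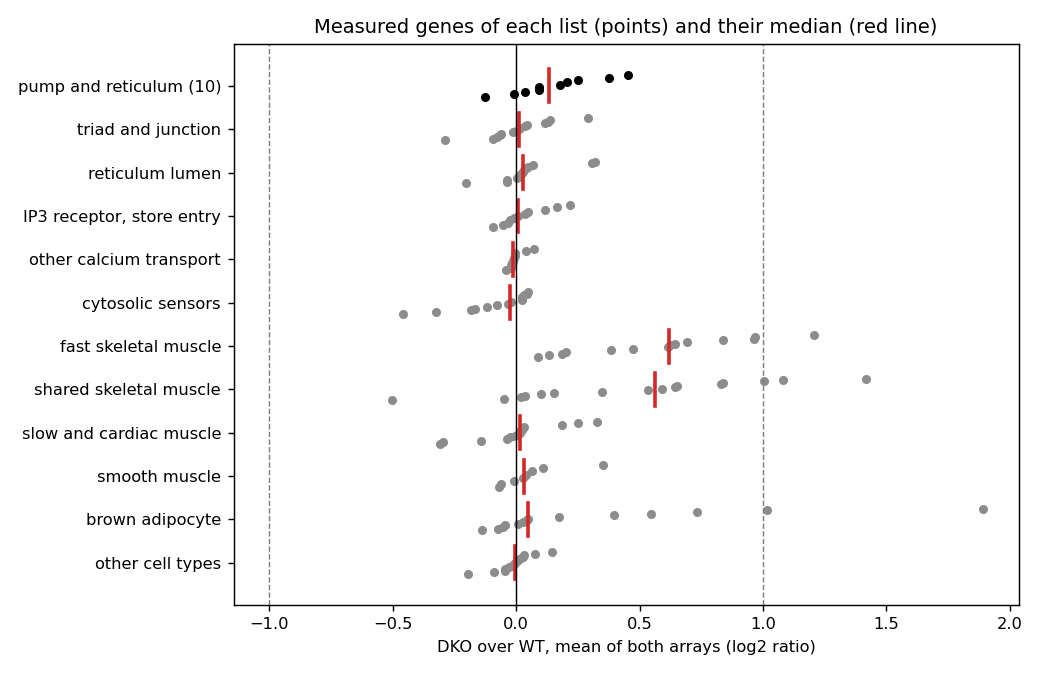
Mean log2 ratio of DKO over WT (horizontal axis) of every measured gene in each list, with the median as a red line and 2-fold as dashed lines; the 10 pump and reticulum genes are black. The fast and shared muscle lists have medians of 0.62 and 0.56, the 10 genes 0.13, and the 5 other calcium lists lie between −0.03 and 0.03.

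In the plane of the 2 arrays' ratios, the genes nearest to Atp2a1 among 14100 others were Fhl1 (0.46 ± 0.18), a LIM-domain protein abundant in muscle, Tmem37 (0.44 ± 0.13), related to calcium channel gamma subunits, and Gtf2ird1 (0.47 ± 0.21), a transcription factor. Their distances were 0.02, 0.03 and 0.05 log2 units. Likeness over 2 arrays is a weak criterion, since many genes fall close to any point.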

How the data were processed

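The authors read both arrays with Agilent Feature Extraction 7.5, leaving its parameters at their defaults, per the labels. Mean, median and local background signals are deposited as intensity on a linear scale per the file headers. The deposited log10 ratios of red over green were detrended and dye-normalised by the software, per the file headers, and carry its error and a p-value for measurement error on 1 array. Well above background means 2.6 background SDs per the file headers. The deposited series table holds log2 ratios of red over green; both columns have a median of 0 and match the software's ratios, and the design text names Rosetta Resolver without its steps. The labels' second knockout allele is not reported here.

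Mean signals were corrected by normexp with offset 50 and loess-normalised per array with control spots at weight 0 (limma 3.58.1, R 4.3.3). The array with DKO in Cy3 had its sign turned. Outlier spots were left out (171 and 29), leaving 40979 probes with a value on both arrays. Median Cy3 signals were 113 and 107 over backgrounds of 72 and 70. Precision is limited by the number of arrays (2). Probes were named through a RefSeq table of GRCm38.p6, used for names only: 11450 by accession, 2296 by symbol, 1307 by older symbol, 5799 through the file's accession list and 20322 not at all. A gene took its brightest measured probe, where measured means well above background in a genotype on both arrays. Promoters are RefSeq's on GRCm38.p6, and were matched by symbol for 8 genes. The calling step was tested on simulated data, with changes put only into brighter spots. That test does not cover dim members such as Casq1, Casq2, Pln and the probe named Sln. Genes named were all members, called list genes (up to 5) or else the 2 brightest, and Rora. Also named were the 4 largest of each skeletal muscle list and the 3 nearest to the largest member. Ucp1, Car3, Pecam1, Cdh5, Tnnc2, Tnni2, Myl1 and the calcium-list genes picked with their values known were named outside this rule. Members and lists were chosen with earlier results of these data known. Alternatives are listed in the closing section. Python 3.11.15, pandas 2.3.3 and matplotlib 3.10.9 were used.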

Additional observations from a re-analysis of the deposited data

How the results depend on the processing

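The count of members called was 0 in each direction under offset 16, the software's ratios, the series table, median signals, median centring, both other dim filters, the mean over probes, 1.5-fold and 3-fold thresholds, each array alone and all 10 genes (the last chosen after seeing the data). The exception was the software's p-value limit on both arrays, with 1 higher and 0 lower. The median of the 8 genes ranged from −0.0238 to 0.1167 on single arrays, turning sign on the one with DKO in Cy5, and was 0.1595 with the software's ratios. Among single members Atp2a1 (0.34 to 0.62), Atp2a2 (0.21 to 0.55), Ryr2 and the probe named Sln kept their sign in all 8 alternatives run, but the Sln probe found by accession read 0.25; Atp2a3, Casq1, Casq2 and Pln did not. Called fast muscle markers numbered 3 with offset 16, median centring, the software's ratios and the series table, and 0 to 3 on single arrays; called shared markers numbered 2 to 5 there, with a median of 0.2178 to 0.7718. The median of the 5 calcium lists was 0.0753 with median centring, against a median of 0.05 over all genes, and −0.0548 to 0.0449 on single arrays. The slow and cardiac median was −0.0133 to 0.1123 on single arrays. No paired analysis was possible because the 2 arrays count as 1 replicate; each ratio is already a difference within an array. Dim signal limits Casq1, Casq2, Pln and the probe named Sln most.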
